A study of Mus musculus with 6 samples.

Results

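The mouse keratin genes were examined in RNA from sorted thymic tuft cells, a chemosensory cell type of the medulla, collected by its surface protein L1CAM. All genes whose symbol is Krt followed by a digit were taken, leaving out keratin-associated proteins and pseudogenes, which gave 53 of the 55471 genes in the table. They were described as 6 simple, 3 basal, 13 suprabasal, 4 inducible and 25 hair and root sheath keratins, with Krt222 and Krt88 in no class. Of the 53 genes, 27 lie on chromosome 11 and 26 on chromosome 15. A further 2 symbols that match the rule were left out as pseudogenes, Krt8-ps and Krt74, whose normalized counts did not exceed 24.8 in any library.

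The 6 libraries came from mice with floxed alleles of Ikzf1, the gene of the zinc finger protein Ikaros (Ikzf1 fl/fl), and fell into 2 groups of 3. One group lacked Foxn1-Cre and is labelled WT; the other carried it and is labelled KO. Foxn1-Cre is active in thymic epithelium at large, so the deletion is not restricted to tuft cells, and the floxed alleles are shared by both groups. Strain, age and sex are not stated. The labels do not say that the libraries are from different animals, so the spread behind each p-value may be technical in part. In the table the Cre-negative libraries are called Het1, Het2 and Het3 and the others Ko1, Ko2 and Ko3. The name Ko was read as the Cre-positive group and Het, by elimination, as the Cre-negative group.

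Keratins build the intermediate filaments of epithelial cells. Each filament is made of pairs, a type I protein with a type II protein, and the pairs mark the kind of epithelium. Krt8 and Krt18 form the filaments of single-layered epithelia, Krt5 and Krt14 those of the basal layer of stratified epithelia, and Krt1 and Krt10 those of the layers above it in the skin. Krt6, Krt16 and Krt17 are switched on in wounded skin and in skin appendages, and hair keratins harden the hair shaft. In the thymus, Krt8 and Krt18 are known for cortical and Krt5 and Krt14 for medullary epithelium, and medullary cells also transcribe tissue-restricted genes at low levels, in part through mimetic cells that resemble peripheral epithelia.

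Values are read counts divided by the authors' size factor for each library, called normalized counts here. Libraries held 12238400 to 31435800 reads over genes, to 6 digits, and 3 reads correspond to 1.68 to 4.33 normalized counts. The targeted gene went against the label: Ikzf1 was at 301, 187 and 273 normalized counts in Het1 to Het3 and at 1572, 1463 and 1717 in Ko1 to Ko3, higher in the libraries labelled Ko (log2 fold change 2.66 ± 0.30 SE, limma adjusted p = 0.0105). Counts over a whole gene need not drop when part of it is deleted, and which exons the reads came from was not analysed here, so directions below are those of the column names. The gene behind the sort, L1cam, was present in every library, at 2745 ± 331 in Het and 3670 ± 687 in Ko (SD, n = 3 each), and all 20 tuft cell markers listed, such as Pou2f3 and Trpm5, were measured above the threshold for testing.

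Of the 53 keratin genes, 39 had a mean of at least 10 normalized counts and were tested with limma, which compares log2(normalized count + 1) between groups and adjusts p over all 19416 genes tested (threshold 0.05). Krt19 and Krt6b were lower in the Ko libraries and none was higher. Over all tested genes 0.814% were called in either direction. The keratins called lower were 5.13% of those tested, where 0.525% of all tested genes were called lower and 0.288% higher. At an unadjusted p under 0.05, 7 of the 39 were lower (17.9%, against 7.99% of all genes) and 2 were higher, Krt14 and Krt72 (5.13%, against 5.62%). The log2 fold change was negative for 31 of the 39 (79.5%, against 52.8% of all genes), with a median of -0.69 against -0.05 over all genes. Several of these genes passed the threshold through the 1 or 2 libraries in which they were high, so the counts describe the list and are no test of it.

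**Figure D1:**
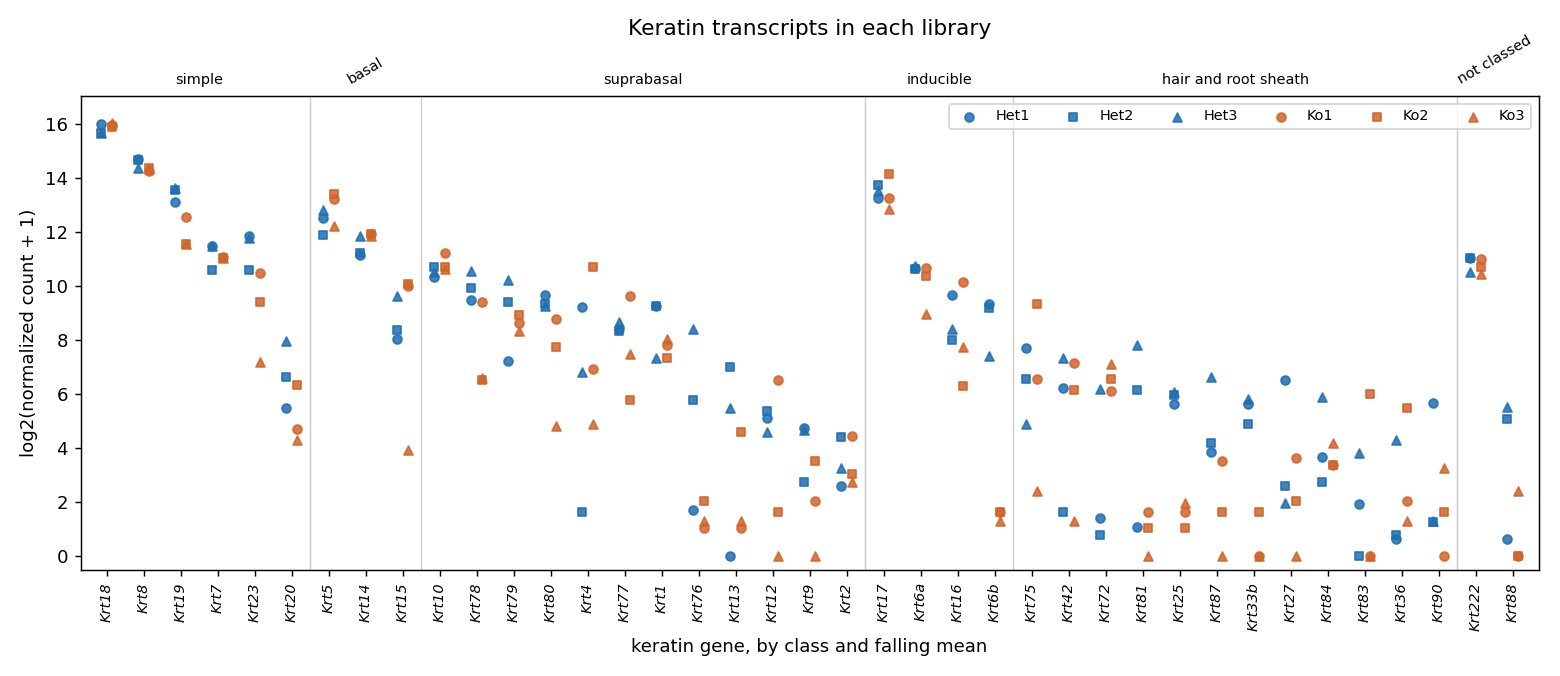
Each point is the log2(normalized count + 1) of 1 keratin gene in 1 library, for the 39 tested genes, ordered by class and by falling mean. Blue marks the Het and orange the Ko libraries, and the marker shape gives the library number. Points of the most abundant keratins lie close together, those of the suprabasal and hair keratins spread widely, and the Krt6b points of the groups stand far apart.

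Simple keratins held 67.3% to 81.8% of all keratin counts in every library. Per kilobase of transcript, which allows genes to be compared, Krt18 was the most abundant keratin in both groups, with 38778 normalized counts per kilobase in Het and 43814 in Ko. Krt8 followed with 12371 and 10346. In normalized counts, Krt18 was at 64761, 50889 and 51522 in the Het and at 62619, 60081 and 66183 in the Ko libraries. The groups overlapped (log2 fold change 0.18 ± 0.11 SE, limma adjusted p = 0.524).

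Its type II partner Krt8 was at 26430, 25399 and 20836 in Het and at 19155, 20997 and 20619 in Ko, again with an overlap (-0.25 ± 0.12, limma adjusted p = 0.407). The ratio of Krt18 to Krt8 per kilobase was 3.34, 2.73 and 3.37 in Het and 4.45, 3.90 and 4.37 in Ko. These ratios did not overlap, and a comparison of 3 libraries with 3 cannot reach an exact permutation p below 0.10. Of the Krt8 transcript's 50-base windows, 26.9% also occur in Krt8-ps, a processed copy that was itself counted at 5.73 to 24.8 normalized counts.

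Krt19 fell in the libraries labelled Ko. This short type I keratin of ducts and other simple epithelia was at 8720, 11978 and 12452 normalized counts in Het1 to Het3 and at 5921, 2956 and 2959 in Ko1 to Ko3. Every Het library was above every Ko library, and Ko1 stood nearest to the Het range. The means were 11050 ± 2032 and 3945 ± 1711 (SD, n = 3 each), a 2.8-fold difference (log2 fold change -1.55 ± 0.27 SE, limma adjusted p = 0.0381). In these bulk samples, fewer cells that express a gene and less RNA of it per cell cannot be told apart.

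The log2 fold change of Krt19 lay between -1.88 and -1.38 under 18 other settings, but its call was lost in 8 of them. The limma adjusted p was 0.0518 without Het1, 0.149 without Het2, 0.185 without Het3, 0.0872 without Ko2 and 0.11 without Ko3. With other count methods, edgeR gave an adjusted p of 0.0937, voom 0.0664 and DESeq2 6.43e-06. The authors' deposited table gives Krt19 a log2 fold change of -1.49 ± 0.36 (SE) with an adjusted p of 0.00168. No 50-base window of its transcript occurs in another gene.

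Relative to Krt18, another type I keratin, Krt19 per kilobase stood at 0.123, 0.215 and 0.22 in the Het and at 0.0862, 0.0449 and 0.0408 in the Ko libraries. Relative to Krt8, with which it can pair, it stood at 0.41, 0.586 and 0.742 in Het and at 0.384, 0.175 and 0.178 in Ko. Ko1 lay closest to the Het libraries in both ratios.

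The other simple keratins passed no adjusted threshold. Krt23, a type I keratin of simple epithelia, was at 3617, 1544 and 3447 in Het and at 1423, 678 and 142 in Ko. The groups did not overlap, though Het2 and Ko1 were close, and the test gave a log2 fold change of -2.38 ± 0.70 (limma adjusted p = 0.166; -1.45 without Ko3 and -3.11 without Ko1). Krt7, a type II keratin of glands and ducts, was at 2810, 1532 and 2814 in Het and 2146, 2075 and 2061 in Ko, with the Ko values inside the Het range (-0.13 ± 0.25, limma adjusted p = 0.873). Krt20, known from intestine, urothelium and Merkel cells, was at 43.1, 97.3 and 248 in Het and 24.7, 79.8 and 18.6 in Ko. Those groups overlapped too (-1.58 ± 0.97, limma adjusted p = 0.532).

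**Figure D2:**
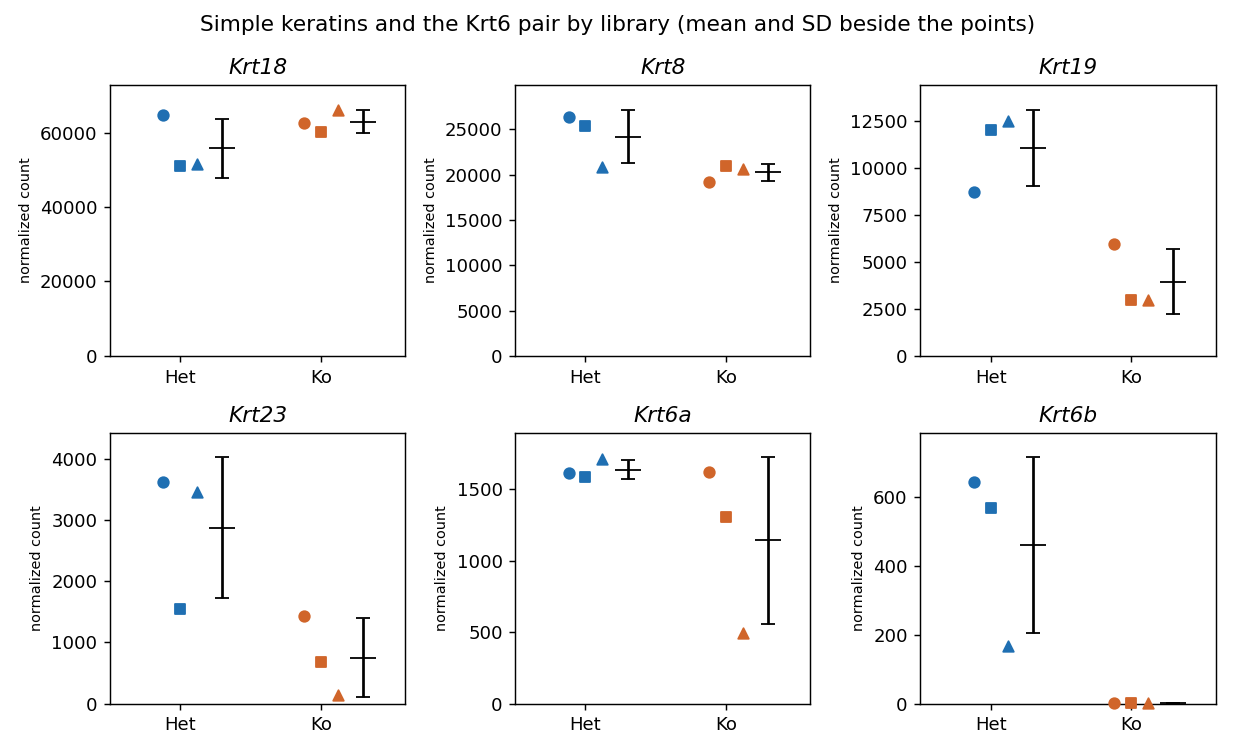
Normalized counts of Krt18, Krt8, Krt19, Krt23, Krt6a and Krt6b, one panel per gene with its own vertical scale starting at 0. Each point is 1 library (circle, square and triangle for libraries 1, 2 and 3), and the bar beside the points is the group's mean with its SD (n = 3). The groups are apart for Krt19, Krt23 and Krt6b and overlap for Krt18, Krt8 and Krt6a; the 3 Ko points of Krt6b lie at the axis.

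The basal class differed from the other classes in the sign of its median fold change, 0.49, but no basal keratin passed the test. Krt5, the type II basal keratin, was at 5817, 3791 and 7077 in Het and at 9402, 10881 and 4687 in Ko. Ko1 and Ko2 were the highest and Ko3 lay inside the Het range (0.54 ± 0.32, limma adjusted p = 0.511). Krt14, its type I partner, was at 2257, 2370 and 3653 in Het and at 3848, 3813 and 3660 in Ko. The groups were separated only by the gap between 3653 in Het3 and 3660 in Ko3 (0.49 ± 0.21, limma unadjusted p = 0.0426, adjusted p = 0.343).

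Krt15, a type I keratin of basal cells and of hair follicle stem cells, was at 262, 325 and 779 in Het and at 1012, 1078 and 14.3 in Ko. A single library set its sign: the log2 fold change was -0.67 ± 1.37 over all 6 libraries (limma adjusted p = 0.883) and 1.36 without Ko3. Per kilobase, the ratio of Krt14 to Krt5 was 0.502, 0.809 and 0.668 in Het and 0.53, 0.453 and 1.01 in Ko, so Ko3 had the highest ratio and Ko2 the lowest. The basal keratins made up 6.19%, 5.33% and 9.23% of keratin counts in Het and 11.4%, 12.2% and 7.43% in Ko.

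Krt6b showed the widest difference of all tested keratins. It is a type II keratin of the inducible group, and it has a near-identical neighbour, Krt6a. Their coding sequences of 1662 (Krt6a) and 1665 (Krt6b) bases are identical in 97.6% of aligned positions and differ in 40, and the longest identical run is 280 bases. Reads can therefore be told apart only where they cover a difference. Coding bases 787 to 876 of both genes (chromosome 15, GENCODE vM21) are shown because they hold 12 of the differences, which are in capitals.
Krt6a: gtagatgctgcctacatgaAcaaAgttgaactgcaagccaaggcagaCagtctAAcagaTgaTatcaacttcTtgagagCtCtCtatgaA
Krt6b: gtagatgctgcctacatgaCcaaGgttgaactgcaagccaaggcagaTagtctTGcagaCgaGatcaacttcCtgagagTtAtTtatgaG
In all, 44.5% of the 50-base windows of the Krt6b transcript also occur in Krt6a, and how the authors' counting treated shared reads is not given in the sources used here, so the split between these genes is uncertain.

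Krt6b was at 643, 570 and 167 normalized counts in Het1 to Het3 and at 2.06, 2.07 and 1.43 in Ko1 to Ko3. The groups were far apart, and each Ko value was at 1 or 2 reads. The Het libraries held 2069 reads and the Ko libraries 5. The rate in Het was 280 times that in Ko, with an exact 95% interval of 120 to 864 covering only the error of counting. In limma, Krt6b had a log2 fold change of -7.12 ± 1.01 SE and an adjusted p of 0.0190. Krt6b thus fell in the libraries labelled Ko.

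The log2 fold change of Krt6b ranged from -7.93 to -4.26 over 18 other settings. Over all 18 the adjusted p ran from 2.02e-14 (DESeq2) to 0.205 (voom). The call was kept in 14, among them edgeR at 0.0178, and lost in 4. It was lost in voom, and in limma without Het1 (adjusted p = 0.0674), without Het2 (0.125) and without Het3 (0.103). The authors' deposited table gives a log2 fold change of -7.93 ± 0.91 (SE) and an adjusted p of 3.07e-15.

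Krt6a was at 1610, 1583 and 1711 in Het and at 1619, 1305 and 494 in Ko. Ko1 lay inside the Het range and Ko3 far below it, and the groups overlapped (-0.69 ± 0.39, limma adjusted p = 0.493). The ratio of Krt6b to Krt6a per kilobase was 0.407, 0.367 and 0.0997 in Het and 0.0013, 0.00162 and 0.00295 in Ko. In the Ko libraries, counts on Krt6a thus stood beside almost none on Krt6b, its nearest copy.

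The other 2 inducible keratins are type I partners of the Krt6 proteins. Krt17 was the most abundant of the class per kilobase, with 7517 in Het and 7551 in Ko. It was counted at 9719, 13718 and 11539 in Het and at 9624, 18108 and 7403 in Ko, and the Ko values enclosed the Het values (-0.08 ± 0.28, limma adjusted p = 0.932; 0.01 in DESeq2). Krt16 was at 814, 254 and 335 in Het and at 1126, 76.7 and 212 in Ko, with Ko1 the highest and Ko2 the lowest (-0.64 ± 0.86, limma adjusted p = 0.807). Krt16 shares 25.2% of its windows with Gm11597 and 12.4% with Krt14. Its log2 fold change turned to 0.25 without Ko2 and to 0.02 in DESeq2.

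**Figure D3:**
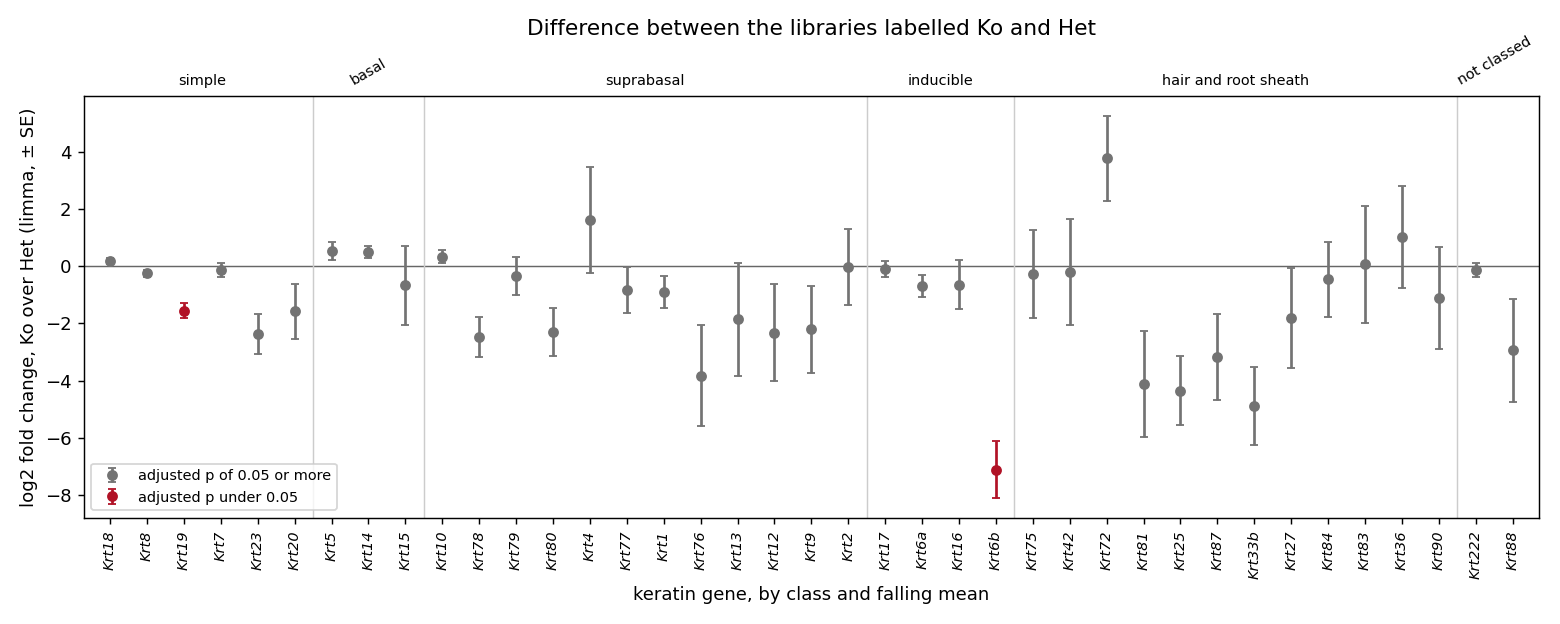
The log2 fold change of each of the 39 tested keratins, Ko over Het, with its standard error from limma. Red marks an adjusted p under 0.05, reached by Krt19 at -1.55 and Krt6b at -7.12. Most other estimates lie below 0, and those of the rarer keratins have wide errors.

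Suprabasal keratins had a median log2 fold change of -1.38 over 12 tested members, 10 of them negative, and none passed the adjusted threshold. Their summed counts were 4577, 5159 and 5821 in Het and 5086, 4394 and 2474 in Ko, so Ko3 was the lowest and the other Ko libraries came close to or inside the Het range. Krt10, the type I keratin of the upper epidermis, was the most abundant. It was at 1294, 1654 and 1446 in Het and at 2363, 1673 and 1557 in Ko, with an overlap (0.33 ± 0.23, limma adjusted p = 0.589). Its partner Krt1 was at 615, 613 and 159 in Het and 222, 160 and 259 in Ko, with an overlap (-0.90 ± 0.57, limma adjusted p = 0.545). Krt10 per kilobase stood at 2.47, 3.16 and 10.7 times Krt1 in Het and at 12.5, 12.3 and 7.04 times in Ko, so the pair was uneven in every library.

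Krt78 and Krt80, both type II, were the suprabasal keratins whose groups did not overlap. Krt78, known from stratified epithelia, was at 708, 976 and 1476 in Het and at 666, 90.1 and 94.5 in Ko. Ko1 lay just below the Het range and the other 2 Ko libraries far below it (-2.49 ± 0.70, limma adjusted p = 0.150; -3.43 with adjusted p = 0.0187 without Ko1). Krt80 was at 815, 639 and 602 in Het and at 433, 213 and 27.2 in Ko (-2.30 ± 0.84, limma adjusted p = 0.261). Without Ko3 the log2 fold change of Krt80 was -1.16, and without Ko1 it was -3.13.

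Other suprabasal members differed more between libraries of 1 group than between the groups. Krt79, known in mice from the hair canal and the ducts of sebaceous glands, was at 147, 674 and 1190 in Het and 389, 486 and 318 in Ko (-0.33 ± 0.66, limma adjusted p = 0.881). Krt77, known in humans from sweat gland ducts, was at 337, 320 and 405 in Het and 778, 53.9 and 179 in Ko (-0.84 ± 0.80, limma adjusted p = 0.712). Krt4, a type II keratin of oral and oesophageal mucosa, was at 592, 2.13 and 110 in Het and 119, 1672 and 28.6 in Ko. Its sign followed a single library (1.62 ± 1.87, limma adjusted p = 0.770; -0.50 without Het2). Krt13, the partner of Krt4 in that mucosa, was at 0, 125 and 43.3 in Het and at 1.03, 22.8 and 1.43 in Ko. Within Het, Krt13 was highest in Het2, where Krt4 was lowest; within Ko, both were highest in Ko2.

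The remaining suprabasal keratins were rare. Krt76, a type II keratin of the hard palate, was at 2.24, 53.2 and 333 in Het and at 1.03, 3.11 and 1.43 in Ko, which is 310 against 5 reads. Most of those reads came from Het3, and the groups overlapped (-3.83 ± 1.77, limma adjusted p = 0.380). DESeq2 called it at 0.00257 and the authors' deposited table at 0.00248. Krt12, the corneal type I keratin, was at 33.6, 40.5 and 23.1 in Het and 89.5, 2.07 and 0 in Ko, and 42% of its windows also occur in A830036E02Rik. Krt9, of palm and sole skin, was at 25.7, 5.68 and 24.5 in Het and 3.09, 10.4 and 0 in Ko. Krt2, of the upper epidermis, reached at most 20.6 normalized counts. Krt24 was too low to be tested, with 55 reads in Het, nearly all in Het2, and 2 in Ko.

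Hair and root sheath keratins were the rarest class, with 0.171% to 0.747% of keratin counts. Of the 25 genes, 12 were tested and none passed the adjusted threshold; the median log2 fold change was -0.78, with 9 negative. At least 10 normalized counts were reached by 9, 7 and 11 of the 25 genes in Het1 to Het3 and by 6, 6 and 2 in Ko1 to Ko3. Their summed counts overlapped widely, at 572, 370 and 860 in Het and 368, 964 and 192 in Ko. The highest and the lowest sums were both in Ko libraries.

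Krt25 and Krt33b were measured in every Het library and nearly missing from every Ko library. The 250 bases before their transcription starts are shown as the promoters of these hair-type genes (RefSeq, GRCm38.p6, minus strand, written 5′ to 3′). Krt25 is at chr11:99322952-99323201 and Krt33b at chr11:100029869-100030118. Capitals mark TATAAA, the TATA box, found 30 bases before the start of Krt25 and 47 before that of Krt33b, and TGGGAA, the core letters that Ikaros proteins recognise, found 117 bases before the start of Krt33b.
Krt25: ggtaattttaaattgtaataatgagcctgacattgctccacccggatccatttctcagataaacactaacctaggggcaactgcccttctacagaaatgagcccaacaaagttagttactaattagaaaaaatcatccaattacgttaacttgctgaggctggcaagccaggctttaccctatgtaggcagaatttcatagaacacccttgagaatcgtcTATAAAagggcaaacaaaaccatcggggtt
Krt33b: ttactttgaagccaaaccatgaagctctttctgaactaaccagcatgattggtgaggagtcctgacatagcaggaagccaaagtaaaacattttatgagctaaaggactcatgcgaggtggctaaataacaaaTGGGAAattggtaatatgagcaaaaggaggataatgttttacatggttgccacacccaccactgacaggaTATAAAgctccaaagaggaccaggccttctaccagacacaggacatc

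Promoters were listed for 36 of the 53 keratin genes, in 37 entries, and Krt6a, Krt6b and Krt19 were not among them. Over both strands, TATAAA was found in 45.9% of the keratin entries and in 12.4% of all 32851 entries of the same length. TGGGAA was found in 21.6% of each, GGGCGG (the GC box) in 5.41% and 32.7%, and TGANTCA (AP-1) in 5.41% and 6.75%. The letters CATG, 5 bases of any kind and CATG were found in 0% and 0.432%. Among the keratins, TGGGAA was found in the entries of Krt8, Krt10, Krt13, Krt14, Krt33b, Krt36, Krt79 and Krt90. A match is a description of letters and shows no binding.

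Krt25, a type I keratin of the inner root sheath, was at 48.7, 61.8 and 66.4 in Het and at 2.06, 1.04 and 2.86 in Ko, or 220 against 5 reads. The Het libraries were alike and all far above the Ko libraries, with a rate ratio of 29.8 (95% interval 12.6 to 92.7, counting error only). The limma log2 fold change of -4.36 ± 1.21 had an adjusted p of 0.143, edgeR gave 0.184 and DESeq2 0.0171. In the authors' deposited table it is given as 9.26e-06. Krt25 shares 8.61% of its windows with Krt27, another inner root sheath keratin. Krt27 was at 91.2, 4.97 and 2.89 in Het and 11.3, 3.11 and 0 in Ko.

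Krt33b, a type I keratin of the hair cortex, was at 48.1, 28.4 and 54.8 in Het and at 0, 2.07 and 0 in Ko, or 164 against 2 reads. All Het values were above all Ko values, with a rate ratio of 55.6 (95% interval 15.1 to 463, counting error only). The test gave -4.89 ± 1.37 (limma adjusted p = 0.146), and the authors' deposited table an adjusted p of 0.00136. Its relatives Krt31, Krt33a and Krt34, which share 12.8% to 15.5% of its windows each, held at most 18 reads in either group.

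Krt87, a type II hair keratin, also kept its groups apart, at 13.4, 17 and 98.1 in Het and 10.3, 2.07 and 0 in Ko (-3.18 ± 1.52, limma adjusted p = 0.402). Krt81, of the hair cortex, was at 1.12, 68.9 and 222 in Het and at 2.06, 1.04 and 0 in Ko. Het1 was as low as the Ko libraries, so the groups overlapped (-4.12 ± 1.86, limma adjusted p = 0.368), while DESeq2 called it at 0.00705 and the authors' deposited table at 0.00542. Krt81 shares 38.0% of its windows with Krt86, which held 62 reads in Het, nearly all in Het2, and 1 in Ko. Counts of this pair are uncertain to that extent.

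Krt72, a type II keratin of the inner root sheath, was the hair-class gene with the most positive difference. It was at 1.68, 0.71 and 72.1 in Het and at 67.9, 93.2 and 136 in Ko. Het3 lay inside the Ko range (3.79 ± 1.49, limma unadjusted p = 0.029, adjusted p = 0.303). Krt75, of the companion layer of the hair follicle, was at 206, 91.6 and 28.9 in Het and 93.6, 645 and 4.3 in Ko. Krt42, known in mice from the nail unit, was at 72.7, 2.13 and 160 in Het and 140, 70.4 and 1.43 in Ko. Both varied more than 10 times within a group, with limma adjusted p of 0.962 and 0.979, and both changed sign without Ko3, to 1.58 and 1.59.

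The hair and root sheath genes left untested were Krt26, Krt28, Krt31, Krt32, Krt33a, Krt34, Krt35, Krt39, Krt40, Krt71, Krt73, Krt82 and Krt86. Over the 6 libraries, the means of all untested keratins were 0.597 to 8.41 normalized counts, against 10.5 for the lowest tested keratin. Krt32, nearest below the threshold, was at 44.7 in Het3 and at most 2.86 elsewhere. Krt39 had 7 reads in Het and 0 in Ko. No keratin had 0 reads in all 6 libraries.

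Of the genes in no class, Krt222, which encodes a short keratin-like protein, was at 2087, 2070 and 1457 in Het and 2034, 1672 and 1392 in Ko (-0.14 ± 0.24, limma adjusted p = 0.856). Krt88 was at 0.559, 32.7 and 44.7 in Het and at 0, 0 and 4.3 in Ko, with an overlap (-2.94 ± 1.80, limma adjusted p = 0.529). For Krt222, Ko1 and Ko2 lay inside the Het range, and for Krt88, Ko3 lay above Het1. Neither gene passed the test.

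**Figure D4:**
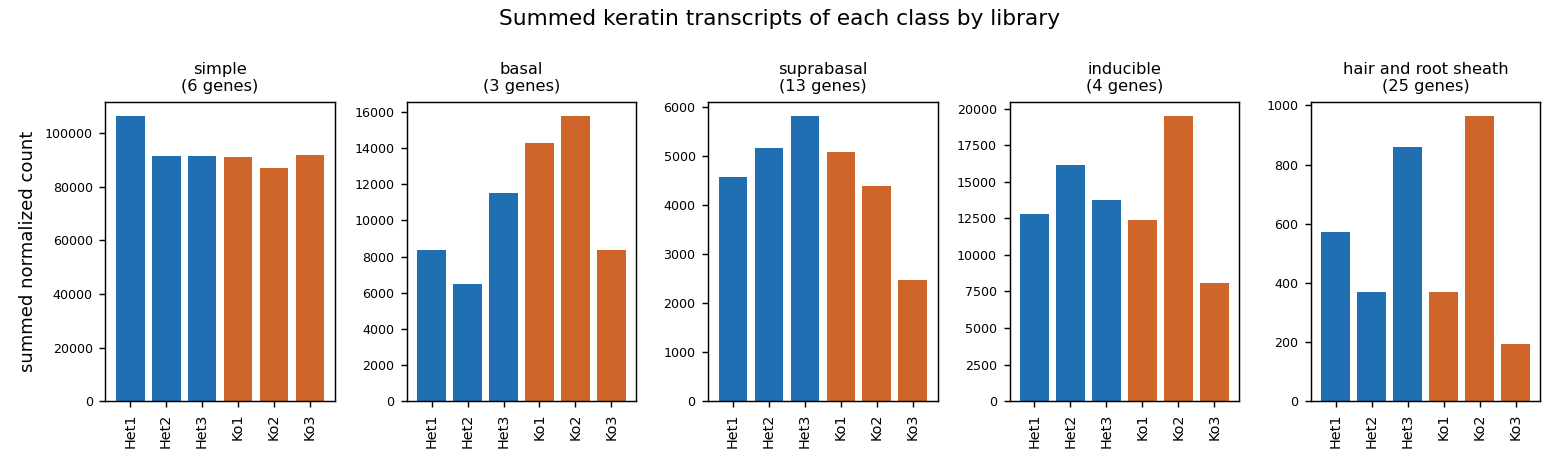
Summed normalized counts of each keratin class in each library (bars start at 0; each panel has its own scale). Simple keratins sum to 86865 to 106380 in every library, the basal sum is highest in Ko2 at 15772, and Ko3 has the lowest suprabasal, inducible and hair sums, at 2474, 8110 and 192.

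The groups overlapped in the total of keratin RNA. All 53 genes together held 0.766%, 0.68% and 0.696% of normalized counts in the Het and 0.727%, 0.727% and 0.642% in the Ko libraries. The number of keratins that reached a set level did not overlap: 32, 33 and 37 genes reached 10 normalized counts in Het1 to Het3, and 28, 28 and 22 did in Ko1 to Ko3. The exact permutation p of such a comparison cannot be below 0.10. Het3 had the most such genes and Ko3 the fewest, and these 2 libraries had the smallest read totals. Het1 and Het2 had the largest read totals, and the part of depth in these numbers was not tested. Groups that did not overlap were found for 8 of the 39 tested keratins with Het higher (20.5%, against 9.86% of all genes) and for 1 with Ko higher (2.56%, against 8.57%).

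Many rare keratins came from 1 library. The median share of a gene's 6-library sum held by its highest library was 24.3% for simple, 26.1% for basal, 32.9% for inducible, 37.1% for suprabasal and 62.1% for hair keratins. For 12 of the 39 tested keratins, 8 of them hair and 3 suprabasal, a single library held at least 50% of the sum. The share also differed by level over all genes: the 18 keratins with a mean under 100 had a median of 53.2%, against 45.8% for all genes in that range, and the 11 with a mean of at least 1000 had 20.9%, against 21.3%. The highest library was Het3 for 14 of the tested keratins, Het1 for 9, Ko2 for 7, Ko1 for 6, Ko3 for 2 and Het2 for 1.

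Across count methods, the number of keratins called lower was 5 in DESeq2 (Krt6b, Krt19, Krt25, Krt76 and Krt81), 1 in edgeR (Krt6b) and 0 in voom. The share of all genes called was 6.34% in DESeq2, 0.386% in edgeR and 0.206% in voom. The authors' deposited table has 6 keratins lower at an adjusted p under 0.05, the DESeq2 genes and Krt33b, where 8.19% of all its genes with an adjusted p pass it, 5.16% lower. None was called higher by any of these methods.

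Genes of the structures that hold keratin filaments showed no called change. Of 28 genes listed for desmosomes and hemidesmosomes, all tested, 15 had positive and 13 negative log2 fold changes, with a median of 0.02 beside -0.05 for all genes. The 28 include Krtcap2 and Krtcap3, which are not parts of these structures and were both positive (0.17 and 0.16). Perp, a desmosomal membrane protein, Dsp, which ties keratins to the desmosome, and Dst, a large linker protein, were the most abundant. Dsp was at 8164, 7196 and 6513 in Het and 5921, 4582 and 3660 in Ko (-0.65 ± 0.19, limma adjusted p = 0.171). Dst was higher in every Ko library, at 5952, 6968 and 7109 against 4920, 4121 and 3356 (limma adjusted p = 0.112), and Perp overlapped. Groups did not overlap for 5 of the 28 with Het higher (9.86% of all genes) and 2 with Ko higher (8.57%). With Het higher these were Dsp, Pkp3 (-0.46 ± 0.29), Ppl (-1.22 ± 0.41), Dsg1a (-3.94 ± 1.54) and Dsg1c (-4.60 ± 1.44). With Ko higher they were Dst and Itgb4 (0.62 ± 0.24).

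Transcription factors known to act on keratin genes had 17 negative and 6 positive values among 23 tested of 26, with a median of -0.25 and none called. Ehf, Elf3 and Sox9, the most abundant, overlapped between the groups, and Elf3 was at 6883 ± 1234 in Het and 6785 ± 518 in Ko (SD, n = 3 each). Groups did not overlap for 5 of the 23 with Het higher (9.86% of all genes) and 0 with Ko higher (8.57%). These 5 were Klf5, Tfap2a, Sox2, Dlx3 and Foxn1. Foxn1 was at 240, 442 and 328 in Het and at 110, 108 and 85.9 in Ko (-1.69 ± 0.49, limma adjusted p = 0.162). Among 16 other intermediate filament genes, 11 were tested, 7 were positive and none was called. Lmna, of the nuclear lamina, was the most abundant, at 2919 ± 362 and 3883 ± 597. Vim, of mesenchymal cells, was at 603 ± 342 and 773 ± 534.

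Markers of other cells are given beside the keratins, and their part in the keratin values was not tested. Of 18 tested keratinocyte markers of 20, 15 were negative with a median of -2.23. Their sums were 40324, 49523 and 53973 in Het and 37206, 14954 and 26816 in Ko, and no member was at 0 reads in all Ko libraries. Only Sprr1a, a cornified envelope protein, was called: it fell from 14753, 16549 and 21708 to 2992, 1575 and 3770 (-2.74 ± 0.29, limma adjusted p = 0.00978). Krtdap, the most abundant member and 1 of 3 with a positive value, overlapped between the groups (0.51 ± 0.46, limma adjusted p = 0.698). Within the sums it was at 4801, 16557 and 14984 in Het and at 21564, 8512 and 18557 in Ko.

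Hair follicle markers stood beside the hair keratins with sums of 2980, 4643 and 3949 in Het and 4873, 2234 and 3269 in Ko, and 8 of 11 tested of 19 were negative (median -0.38, none called). Crym and Tchh, the most abundant, overlapped. Groups did not overlap for 3 of the 11 with Het higher (9.86% of all genes) and 0 with Ko higher (8.57%). These 3 were S100a3 (-3.60 ± 0.91), Psors1c2 (-5.43 ± 1.53) and Dlx3 (-3.32 ± 1.35). S100a3 was at 253, 432 and 307 in Het and at 38.1, 71.5 and 5.73 in Ko. Krtap3-1, Krtap3-3 and Krtap8-1, of the hair shaft, had 0 reads in all Ko libraries and were also at 0 in all but 1 of the Het libraries. In that library they were at 43.3 (Krtap3-1, Het2), 24.1 (Krtap3-3, Het2) and 1.44 normalized counts (Krtap8-1, Het3). Krtap3-2 was at 29.1, 156 and 114 in Het and at 1066, 0 and 1.43 in Ko.

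Beside Krt19, Krt7, Krt20 and Krt23, secretory cell markers were summed at 135453, 135166 and 193437 in Het and at 11890, 35437 and 6858 in Ko. Reg3g alone held most of the Het sums, at 113982, 115754 and 156514, and was at 1532, 25901 and 3078 in Ko. All 11 secretory markers were negative (median -2.43), and Muc13, Fcgbp, Reg3g and Gkn1 fell. Muc1 and Spdef changed least (-0.40 and -0.42). Microfold cell markers were at 43327, 39962 and 55829 against 26470, 25248 and 27290, with 5 of 9 negative and Gp2 and Pglyrp1 called lower. Within these sums, Gp2 was at 18627, 5519 and 16339 in Het and at 1355, 351 and 696 in Ko. Of the 4 positive members, Anxa5, the most abundant, overlapped (0.09 ± 0.19). Spib was higher in every Ko library, at 6357, 5557 and 6878 against 5521, 3624 and 4733 in Het (0.45 ± 0.18, limma adjusted p = 0.319). Urothelial markers were at 4232, 688 and 2933 against 1279, 419 and 169, with 2 of 4 tested negative and 2 positive. Upk3a, a uroplakin, held most of the Het sums and fell from 3078, 491 and 2531 to 7.2, 21.8 and 4.3 (limma adjusted p = 0.0111). The positive members, Upk1b and Upk2, overlapped between the groups (log2 fold change 0.58 and 0.01).

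Beside Krt5 and Krt14, markers of immature medullary cells had 6 positive values among 9 tested of 10, with Lifr and Ackr4 called higher and Ly6a lower. Genes of the Aire stage were negative in 11 of 11, with Ctsz called lower. Tuft cell markers were summed at 237108, 200609 and 170093 in Het and at 249453, 265561 and 305123 in Ko, with 17 of 20 positive and Rgs13 and Ptgs1 called higher. Within these sums, Rgs13 alone was at 34571, 29287 and 32157 in Het and at 68079, 78565 and 98061 in Ko. Gng13, 1 of the 3 negative members, was lower in every Ko library. It was at 27998, 29638 and 25381 in Het and at 14323, 17695 and 19502 in Ko (-0.70 ± 0.14, limma adjusted p = 0.0504). Of thymocyte and mesenchymal markers none was called, and Ko2 had the highest mesenchymal sum, 13956, where the other libraries had 1120 to 2988.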

How the data were processed

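Per the labels' protocols, sorted L1CAM+ cells were lysed in SMART-seq buffer and sequenced as RNA-seq libraries. The submitters' processing notes name STAR 2.7.9a, GRCm39 and DESeq2; no source used here gives the counter, annotation or strandedness. Expression was deposited as a signal: gene counts scaled by the authors with a size factor for each library. A second deposited table, the authors' comparison, holds log2 fold changes with their errors, a Wald score, p-values and adjusted p-values, per the file headers.

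Symbols were matched for 55144 of 55471 identifiers. The members and lists were chosen with earlier results of these data known. The named keratins are Krt genes called or with p under 0.05, and the 6 most abundant of each class. Of the other lists, all called genes are named. Some of their most abundant and some other members are named too, picked without a fixed rule, so they are no neutral sample of a list. Genes with a mean of at least 10 were tested with limma 3.58.1 (R 4.3.3) after taking log2(value + 1) (trended eBayes, two-sided, Benjamini-Hochberg adjusted), with genotype as the only term; this scale understates changes of low genes. Fold changes carry standard errors.

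Every value above 0 was a whole multiple of 1 read within 0.01 reads (100% of values), so reads were recovered and tested with DESeq2 1.42.0, voom and the quasi-likelihood test of edgeR 4.0.16; edgeR called 75 and DESeq2 1118 of all genes. Each of the 6 pairs of replicates differed by more than sampling noise, with a chi-square of 56.9 to 134 for each degree of freedom. Transcript lengths and shared 50-base windows came from GENCODE vM21 (GRCm38) and promoters from RefSeq GRCm38.p6, builds other than that of the counts. The limma and edgeR tests were also run on simulated counts. Only the more abundant genes were changed in them, so changes of the rare keratins were not covered.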

Additional observations from a re-analysis of the deposited data

How the results depend on the processing

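No keratin was called higher under any of the 18 alternatives. The number called lower, 2, became 5 in DESeq2, 1 in edgeR, 1 with the replicate block and 0 in voom, and 0 to 3 when single libraries were left out. Over all genes, 158 calls became 1118 in DESeq2, 75 in edgeR, 87 with the replicate block, 239 with robust eBayes and 40 in voom, and 0 (without Het3) to 116 with single libraries left out, including 14 without Het2, 56 without Ko2 and 50 without Ko3. Whether the numbers in the column names pair the samples is not known. After group means were taken out, same-number columns correlated at 0.025, 0.021 and -0.015 and other columns at -0.046 to 0.024. With 3 libraries in each group these values cannot decide it. Under the replicate block Krt6b had a limma adjusted p of 0.0422 and Krt19 of 0.0659.

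For 26 named keratins, 422 values kept direction and side of the threshold, 12 lost the call (Krt19 and Krt6b), 3 gained it and 26 changed sign, none of them called; the cause was not tested. The sign changed for Krt15 (0.63 in DESeq2, 0.66 in edgeR), Krt16 (0.02, 0.03), Krt17 (0.01, 0.03) and Krt75 (1.18 in both, 0.19 at a pseudocount of 20), and in voom for Krt42 (0.32) and Krt79 (0.05). With single libraries left out, the log2 fold change ran from -1.70 to 1.36 for Krt15, -1.68 to 0.25 for Krt16, -0.45 to 0.19 for Krt17, -0.50 to 3.29 for Krt4, -1.91 to 1.59 for Krt42, -0.43 to 0.01 for Krt7, -1.89 to 1.58 for Krt75, -1.83 to 0.08 for Krt77 and -1.19 to 0.31 for Krt79. Without a change of sign it ran from -3.11 to -1.45 for Krt23, -3.13 to -1.16 for Krt80, -2.19 to -0.94 for Krt20, -1.02 to -0.17 for Krt6a, -6.08 to -2.73 for Krt81, -4.08 to -2.33 for Krt87 and 2.78 to 5.49 for Krt72. The class median ran from -1.35 to -0.32 for inducible and from -1.88 to -0.29 for hair keratins. DESeq2 added Krt25 (-4.91) and Krt81 (-6.49), and Krt78 was called without Ko1. The median log2 fold change of all genes was -0.133 with TMM and -0.028 at equal totals. At 3 reads per library, values under about 4.33 normalized counts are at the limit of detection.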
